A study of Mus musculus with 4 samples.

Results

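Elastic fibres give the aortic wall its recoil. Tropoelastin, the product of Eln, is laid onto microfibrils built from fibrillin, brought there by fibulins and other accessory glycoproteins, and joined into an insoluble polymer by copper-dependent lysyl oxidases. In arteries the concentric elastic lamellae of the media lie between layers of smooth muscle, and the adventitia holds looser networks of microfibrils and elastin made among fibroblasts. The 10 genes described here were chosen by name among the 31053 genes of the deposited matrices: the core protein gene Eln, the microfibril gene Fbn1, the microfibril-associated genes Mfap4, Mfap5 and Emilin1, the fibulin genes Fbln1, Fbln2 and Fbln5, and the cross-linking enzyme genes Lox and Loxl1. All 10 had UMIs (unique molecular identifiers, 1 per captured transcript molecule) in every library.

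The libraries came from aortic arches of male mice, 3 months old at the start, dissected with their branches and perivascular tissue, digested to single cells and sorted for DAPI-negative cells. Each of the 4 groups was 1 pooled droplet library: Lox_CTR (genotype label Nrf2Cdh5Lox, 4 mice) and KO_CTR (Nrf2Cdh5tKO, 4 mice), given a standard diet, and Lox_HFD (Nrf2Cdh5Lox, 3 mice) and KO_HFD (Nrf2Cdh5tKO, 3 mice), given a high-fat diet for 21 weeks. Both genotypes carry the floxed Nrf2 allele. Under the Nrf2Cdh5tKO label a constitutive Cre driven by Cdh5 removes exon 5 in endothelial cells and, since that driver is also active there, in a proportion of hematopoietic cells. Each combination of diet and genotype label was 1 library without a replicate, so differences between 2 libraries carry counting intervals only and no test. A fit of diet and label as additive terms over the 4 libraries was not run.

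After filtering, 14148 cells remained, 7890 in Lox_CTR, 2972 in KO_CTR, 1020 in Lox_HFD and 2266 in KO_HFD, with median depths of 9200.5 to 14152.5 UMIs a cell. Across libraries 30 of 15568 distinct barcodes occurred more than once. Marker gates gave 7813 fibroblasts, 2085 smooth muscle cells, 168 endothelial cells and 3067 leukocytes, and none of the 10 genes was a gate marker. In each class the gate's own markers were detected and summed to at least 5137.6 UMIs per 1000000 (CPM). Cells were gated on these same markers, so high sums follow from the gate and do not check the classes. The endothelium, the main target of the Cre, had only 22 to 72 cells a library. There Nfe2l2, the gene of Nrf2, was at 199 CPM in Lox_CTR, 373 in KO_CTR, 170 in Lox_HFD and 373 in KO_HFD. These are counts over the whole gene, with exon 5 not read apart, so they check neither label.

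In GENCODE M21 (GRCm38, the assembly also called mm10) the genes lay as follows. Eln (ENSMUSG00000029675) is at chr5:134702593-134747323 on the reverse strand and Emilin1 (ENSMUSG00000029163) at chr5:30913402-30921277 on the forward strand. Fbn1 (ENSMUSG00000027204) is at chr2:125300594-125507993, reverse. Fbln1 (ENSMUSG00000006369) is at chr15:85205949-85286535, forward, Fbln2 (ENSMUSG00000064080) at chr6:91212455-91272540, forward, and Fbln5 (ENSMUSG00000021186) at chr12:101746565-101819055, reverse. Mfap4 (ENSMUSG00000042436) is at chr11:61485431-61488900, forward, and Mfap5 (ENSMUSG00000030116) at chr6:122505845-122529290, forward. Loxl1 (ENSMUSG00000032334) at chr9:58287738-58313186, reverse, and the files list Lox as ENSMUSG00000024529.

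RefSeq promoter windows (GRCm38.p6, 250 bases before to 50 after the annotated start) were on hand for 5 of the 10 genes: Fbn1, Fbln1, Fbln2, Fbln5 and Emilin1. Shown here, 5′ to 3′ on the gene's strand, are Fbn1 and Fbln2, which were higher in the Pi16 fibroblasts described below, and the first of 2 annotated starts of Fbln5, which was higher in the Comp/Fmod fibroblasts. Capitals mark the GC box letters GGGCGG on either strand, which occurred in 35.7% of 32851 mouse promoter windows. No window of the 5 genes held the TATA box letters TATAAA (13.6% of all windows), the AP-1 letters TGANTCA (7.81%) or the CArG box (1.63%), all searched on both strands, which says only that these letters were not in these windows.
Fbn1, chr2:125506389-125506688, reverse strand: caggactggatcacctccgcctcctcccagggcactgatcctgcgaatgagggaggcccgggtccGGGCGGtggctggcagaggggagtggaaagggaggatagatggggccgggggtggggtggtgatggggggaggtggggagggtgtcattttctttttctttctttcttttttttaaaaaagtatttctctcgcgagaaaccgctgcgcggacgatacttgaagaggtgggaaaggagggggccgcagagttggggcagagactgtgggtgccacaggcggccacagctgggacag
Fbln2, chr6:91212514-91212813, forward strand: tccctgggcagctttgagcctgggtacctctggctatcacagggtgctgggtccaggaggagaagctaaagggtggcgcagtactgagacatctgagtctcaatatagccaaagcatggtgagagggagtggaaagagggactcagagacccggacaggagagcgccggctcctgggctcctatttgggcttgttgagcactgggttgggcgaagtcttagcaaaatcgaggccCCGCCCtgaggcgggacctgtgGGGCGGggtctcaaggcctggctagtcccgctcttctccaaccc
Fbln5, chr12:101819070-101819369, reverse strand: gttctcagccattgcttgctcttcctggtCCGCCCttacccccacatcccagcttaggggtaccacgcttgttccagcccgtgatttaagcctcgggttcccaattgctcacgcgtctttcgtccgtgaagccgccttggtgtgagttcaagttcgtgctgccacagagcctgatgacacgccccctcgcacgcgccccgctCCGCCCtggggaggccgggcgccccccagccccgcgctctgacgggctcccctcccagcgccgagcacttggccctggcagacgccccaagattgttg
The Fbn1 window held 1 GC box, and those of Fbln2 and Fbln5 held 2 each. Their GC content was 60.3% for Fbn1, 60.3% for Fbln2 and 65.7% for Fbln5, against a median of 52.7% over all windows. Among the windows not shown, the second start of Fbln1 held 2 GC boxes, and the first start of Fbln1, the second start of Fbln5 and Emilin1 held 0.

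The first question was which cells of the arch carried the transcripts. Fibroblasts and smooth muscle divided the set unequally. Among the abundant classes, that is, leaving out the endothelium, Eln had its highest CPM in smooth muscle. There Fbn1, Fbln1, Fbln2, Mfap4, Mfap5 and Loxl1 were highest in fibroblasts. Endothelial cells had more Fbln2 than fibroblasts in Lox_HFD and KO_HFD. By number of UMIs, fibroblasts held more Eln than smooth muscle in KO_CTR, Lox_HFD and KO_HFD, and less in Lox_CTR. Smooth muscle held 26739, 10681, 966 and 3559 Eln UMIs in Lox_CTR, KO_CTR, Lox_HFD and KO_HFD, and the more numerous fibroblasts 25372, 25660, 3113 and 4624. The CPM is the sum of a gene's UMIs over the cells of a class in a library, divided by all UMIs of those cells. Since each molecule gives 1 UMI at its 3′ end whatever its length, CPM does not grow with transcript length. Other differences between genes in capture were not examined, so an order of genes here is an order of CPM.

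Eln had 1254 CPM in the smooth muscle of Lox_CTR, 1906 in KO_CTR, 1297 in Lox_HFD and 1113 in KO_HFD. In fibroblasts the same libraries gave 481, 968, 457 and 345 CPM. The lowest smooth muscle library thus lay above the highest fibroblast library. In a paired test over the 4 libraries (edgeR, library as block, chosen after seeing the data), Eln rose by 1.39 ± 0.12 (log2, SE, n = 4) in smooth muscle over fibroblasts, with an adjusted p of 9.99e-07. The 4 libraries are pools of different diet and label. The p and SE come from a fit that shares its estimate of spread across genes, and the SE was taken back from the test statistic. Both can therefore understate a gene's own spread over the libraries. Emilin1, an elastin-associated glycoprotein of the interface between elastin and microfibrils, also rose, by 0.66 ± 0.08 with an edgeR adjusted p of 3.67e-05. Its levels were low, at 71.1 to 91.0 CPM in smooth muscle and 44.0 to 64.0 in fibroblasts.

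These 2 of the 10 genes were higher in smooth muscle at an adjusted p under 0.05, and 6 of 10 were lower. Of all 14114 genes tested, 25.5% were higher and 30% lower, so that the shares among the members lay near the background for higher and above it for lower. The 6 lower genes were Fbn1, Fbln1, Fbln2, Mfap4, Mfap5 and Loxl1. Fbn1, whose product is the backbone of the microfibril, was at 695, 982, 1034 and 833 CPM in the fibroblasts of Lox_CTR, KO_CTR, Lox_HFD and KO_HFD. In smooth muscle it was at 147, 195, 150 and 143 CPM in the same order, a fall by 2.45 ± 0.12 on the log2 scale (n = 4, edgeR adjusted p = 7.40e-09). Mfap5, which binds fibrillin microfibrils, was the most abundant of the 10 genes in the fibroblasts of every library, at 1991, 1875, 1691 and 1565 CPM, against 417, 550, 333 and 306 in smooth muscle.

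Fbln1, the gene of an elastin- and basement membrane-binding fibulin, was the member that fell most in smooth muscle after Fbln2, with 901 to 1347 CPM in fibroblasts and 14.8 to 58.9 in smooth muscle. Fbln2, a fibulin that joins elastin to fibrillin-1, was at 398 to 946 CPM in fibroblasts and at 21.3, 27.7, 0 and 5.94 CPM in the smooth muscle of Lox_CTR, KO_CTR, Lox_HFD and KO_HFD. In leukocytes Fbln2 was at 4.12 to 13.95 CPM, so that only the CTR libraries had more of it in smooth muscle than any library had in leukocytes. Mfap4, a fibrinogen-domain protein of the microfibril, and Loxl1, the lysyl oxidase homologue that acts on elastin, differed less. Their fitted log2 differences were -0.78 ± 0.11 and -1.55 ± 0.09, with edgeR adjusted p of 8.44e-05 and 2.22e-08.

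Fbln5 and Lox did not pass the test between these classes. Fbln5, which guides elastin onto microfibrils, had 493, 518, 586 and 481 CPM in fibroblasts and 460, 481, 411 and 432 CPM in smooth muscle of Lox_CTR, KO_CTR, Lox_HFD and KO_HFD (log2 difference -0.21 ± 0.11, n = 4, edgeR adjusted p = 0.122). The fibroblast value was the higher in each of the 4 libraries. Lox, the lysyl oxidase of both collagen and elastin, had 106, 149, 166 and 123 CPM in fibroblasts and 121, 125, 113 and 109 CPM in smooth muscle (-0.15 ± 0.12, n = 4, edgeR adjusted p = 0.313). Without Lox_CTR, the 1 library with the opposite direction, the Lox difference was -0.30 with an edgeR adjusted p of 0.0499, just past the threshold.

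Eln UMIs were gathered in fewer of the fibroblasts than of the smooth muscle cells. The 10% of fibroblasts with the most Eln UMIs held 52.6% to 62.5% of all fibroblast Eln UMIs, against 26.0% to 33.7% for the corresponding 10% of smooth muscle cells. Such shares are higher where counts are sparse, and the lower Eln level of fibroblasts was not matched here. After each cell was thinned to 2000 UMIs, 76.9% to 92.7% of smooth muscle cells and 32.8% to 54.7% of fibroblasts had an Eln UMI. The thinning left out 18 to 225 fibroblasts, 3 to 44 smooth muscle cells and 14 to 65 leukocytes a library as too shallow. Unthinned, the shares were 87.4% to 99.2% and 64.4% to 88.8%. In leukocytes, which are not known to make elastin, the thinned share was 2.18% to 6.66% and the unthinned one 7.04% to 23.1%, at median depths of 7110 to 8982 UMIs a cell.

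Leukocytes held the members at low levels throughout. Eln was at 30.0, 31.3, 30.5 and 12.6 CPM in the leukocytes of Lox_CTR, KO_CTR, Lox_HFD and KO_HFD. Taken as a percentage of the level over all cells of the library, the 10 genes ranged from 1.15% to 23.4% with a median of 3.31%, and Pi16, a fibroblast marker used as a gauge of free RNA, from 2.09% to 5.48%. Emilin1 gave the highest percentages, 11.99% to 23.4%, at 5.05 to 13.2 CPM. Fbn1 in the leukocytes of KO_HFD was at 33.1 CPM against 7.14 to 15.8 in the other libraries, and macrophage-gated cells there had 38.8 CPM against 8.41 to 15.8. Eln in Lox_HFD was at 57.5 CPM in T-cell-gated cells and at 12.4 in macrophage-gated cells. T-cell-gated cells of the other libraries had 9.78 to 26.8 CPM of Eln.

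**Figure D1:**
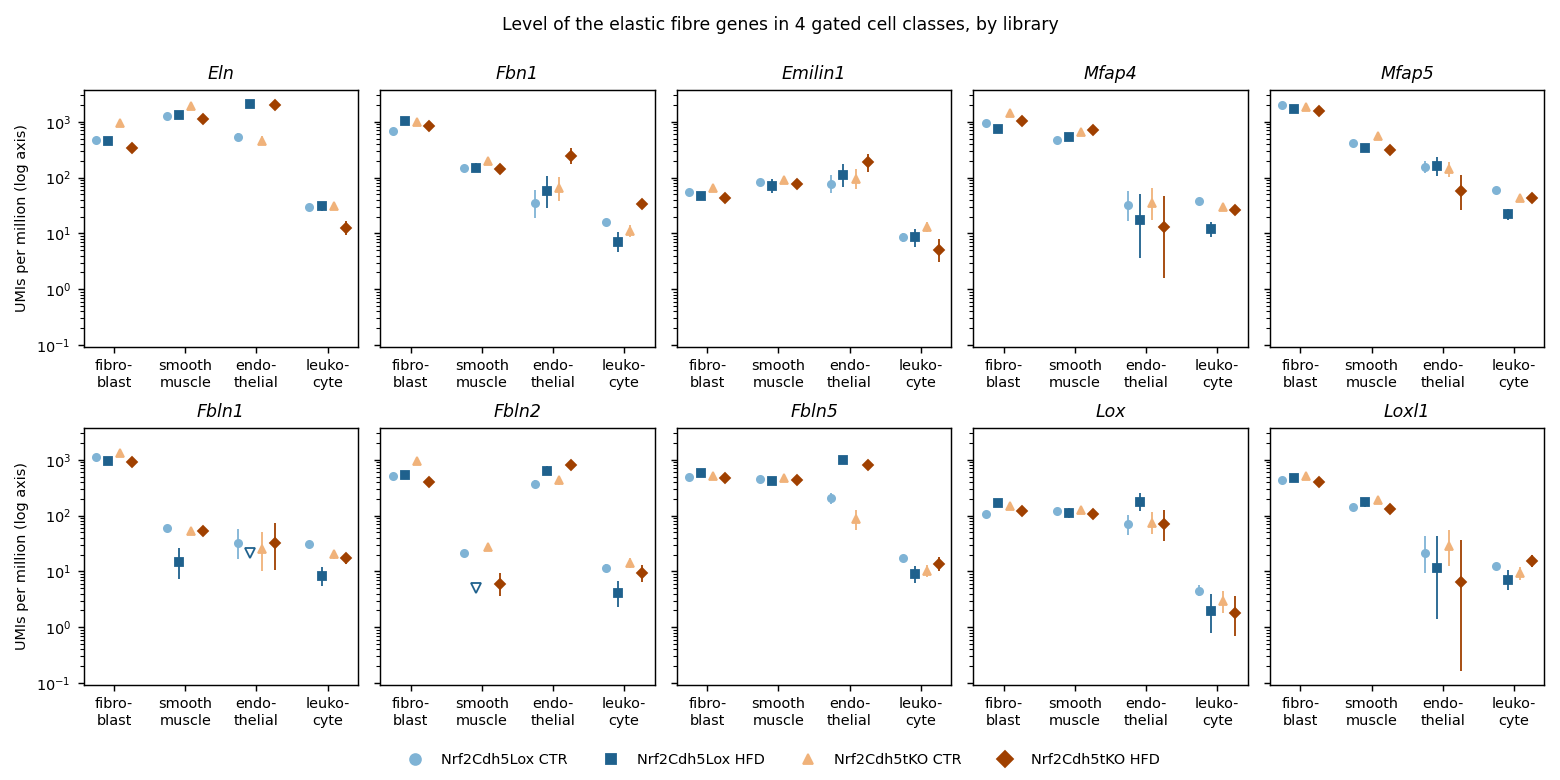
CPM on a log axis for each elastic fibre gene in fibroblasts, smooth muscle, endothelial cells and leukocytes, with 1 point for each library and bars for the exact Poisson 95% interval. Open triangles mark the upper limit where a library had no UMI (Fbln2 in smooth muscle and Fbln1 in endothelium, both in Lox_HFD). Eln lay between 1113 and 1906 CPM in smooth muscle of the 4 libraries, and Fbln1, Fbn1 and Mfap5 had their highest values in fibroblasts.

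In endothelial cells the 10 genes summed to 1550, 1440, 4217 and 4261 CPM in Lox_CTR, KO_CTR, Lox_HFD and KO_HFD. The sums in the same order were 3184, 4276, 3092 and 3076 CPM in smooth muscle. Fibroblasts had 6815, 8801, 6659 and 6119 CPM. Over fibroblasts, 1 of 10 genes was higher and 6 of 10 were lower at an edgeR adjusted p under 0.05, against 9.54% and 15.6% of 13689 genes. The 6 lower genes were Fbn1, Fbln1, Mfap4, Mfap5, Lox and Loxl1. Mfap4 was at 12.9 to 35.6 CPM and Loxl1 at 6.44 to 28.4 CPM in endothelial cells, values that overlapped those of leukocytes in the plot by class. The higher gene was Emilin1, at 78.1, 96.0, 111 and 187 CPM in Lox_CTR, KO_CTR, Lox_HFD and KO_HFD, with a log2 difference of 0.82 ± 0.24 (n = 4, edgeR adjusted p = 0.00607). That call was lost without KO_HFD (0.53, edgeR adjusted p = 0.11) and with a stricter marker gate (0.37, edgeR adjusted p = 0.339). In KO_HFD 1 cell held 13 of the 29 Emilin1 UMIs, and without that cell Emilin1 was at 135 CPM. The Lox difference, -0.82 ± 0.22 with an edgeR adjusted p of 0.00354, was lost without KO_CTR (-0.64, adjusted p = 0.0908).

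Eln, Fbln2 and Fbln5 did not pass this test, with log2 differences of 0.73 ± 0.29, -0.35 ± 0.22 and -0.73 ± 0.28 (n = 4) and edgeR adjusted p of 0.0615, 0.27 and 0.0503. By library, in the order Lox_CTR, KO_CTR, Lox_HFD, KO_HFD, the Eln difference was 0.18, -1.08, 2.17 and 2.56. That of Fbln5 was -1.25, -2.60, 0.75 and 0.75. The Fbln2 difference was -0.46, -1.14, 0.27 and 1.02. For all 3 genes the libraries thus differed in direction, a spread that the SE does not show. All 3 results turned on the libraries and the gate: Eln passed without KO_CTR (1.42, edgeR adjusted p = 3.00e-08), and Fbln2 and Fbln5 passed without KO_HFD (-0.67 and -1.11, edgeR adjusted p of 0.00272 and 1.03e-06). With the stricter marker gate all 3 passed, at 0.56, -0.57 and -0.79 (edgeR adjusted p of 0.0113, 0.00834 and 0.000497), and Fbln5 passed with doublets or shared barcodes removed (edgeR adjusted p of 0.0497 and 0.0483). Eln was at 544 CPM in Lox_CTR, 459 in KO_CTR, 2053 in Lox_HFD and 2034 in KO_HFD. Both HFD libraries were therefore above both CTR libraries, with log2 ratios of 1.92 (95% interval 1.66 to 2.17) in the Nrf2Cdh5Lox pair and 2.15 (1.85 to 2.46) in the Nrf2Cdh5tKO pair. Fbln5 was at 207, 85.3, 988 and 811 CPM in the order Lox_CTR, KO_CTR, Lox_HFD, KO_HFD. Fbln2 was at 374, 430, 638 and 804 CPM in the same order. All 3 genes thus had higher values in both HFD libraries, and the intervals of their ratios left out 0. No other of the 10 genes had intervals that left out 0 in the same direction in both pairs. The share of all genes that did is not given here.

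Few cells stood behind these endothelial values. In KO_HFD 15 of 22 cells had an Eln UMI and 1 cell, with 36553 UMIs in all, held 177 of the 316 Eln UMIs. Without the cell richest in Eln in each library the levels were 473, 386, 1467 and 1170 CPM, and the log2 ratios 1.63 and 1.60. The same step left Fbln5 at 138, 48.1, 562 and 737 CPM, with log2 ratios of 2.02 and 3.94, and Fbln2 at 326, 368, 533 and 497 CPM, with log2 ratios of 0.71 and 0.43. As a mean over cells, which gives each cell the same weight, the ratios of the Nrf2Cdh5Lox and Nrf2Cdh5tKO pairs were 1.42 and 1.25 for Eln, 1.81 and 3.63 for Fbln5, and only 0.27 and 0.11 for Fbln2. Markers of endothelial type in these gated cells also differed between the HFD and CTR libraries. Capillary markers (Cd36, Fabp4, Rgcc, Gpihbp1 and Aqp1, a list added after seeing the data) summed to 31756 and 24079 CPM in Lox_CTR and KO_CTR and to 11412 and 6114 CPM in Lox_HFD and KO_HFD. Arterial markers (Gja4, Gja5, Bmx, Sox17 and Clu, likewise added) summed to 1674, 2066, 5650 and 4473 CPM in the order Lox_CTR, KO_CTR, Lox_HFD, KO_HFD. In that order Fabp4 alone gave 25105, 18714, 8276 and 4859 CPM of the capillary sums. Clu gave 1163, 1390, 4375 and 3662 CPM of the arterial ones. Of the arterial markers only Bmx was lower with the diet in a pair, at 420 CPM in KO_CTR and 386 in KO_HFD. Whether the kinds of cell or their expression differed was not tested. Smooth muscle gate markers in the same cells summed to 651 to 1557 CPM, the highest in KO_HFD. Fibroblast gate markers there summed to 1004, 796, 1141 and 1757 CPM in the order Lox_CTR, KO_CTR, Lox_HFD, KO_HFD. Cardiomyocyte markers (Myl7, Nppa, Sln, Myl4 and Actc1) summed to 2.69, 594, 5.85 and 0 CPM in that order. The part of these markers in the elastin, fibulin-2 and fibulin-5 values was not tested.

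**Figure D2:**
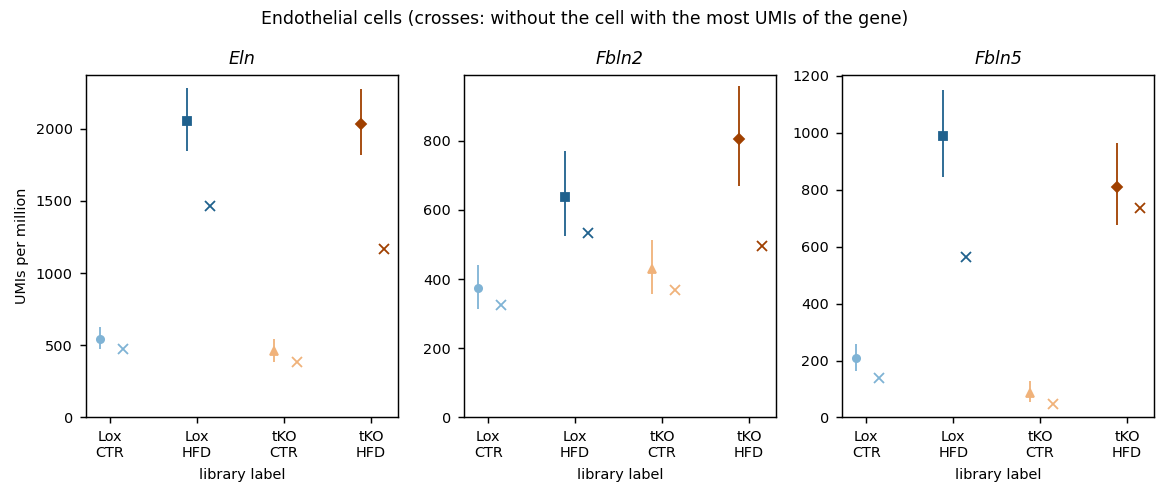
Eln, Fbln2 and Fbln5 in endothelial cells as CPM, with 1 symbol for each library, bars for the exact Poisson 95% interval, and crosses for the level without the cell that held the most UMIs of the gene. For all 3 genes both HFD libraries lay above both CTR libraries with and without that cell.

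The second question was how the fibroblasts differed among themselves. Panels of other genes gated 2159 Pi16 fibroblasts (Pi16, Dact2, Dpp4, Cd55 and Sema3c), 478 Comp/Fmod fibroblasts (Comp, Fmod, Chad and Cilp2), 287 Penk, 146 Cilp/Meox1 and 24 Tfap2b fibroblasts. A further 4542 passed no panel. Between Comp/Fmod and Pi16 fibroblasts all 10 genes passed the paired edgeR test over the 4 libraries, 6 higher and 4 lower in Comp/Fmod cells. Among 12000 genes tested, 13.8% were higher and 13.2% lower. Each gene had the same direction in 4 of 4 libraries. The share of all genes that did is not given here, so this is not read as a trait of the members.

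The 6 genes higher in Comp/Fmod cells were Eln, Mfap4, Emilin1, Fbln1, Fbln5 and Lox. Eln was at 930, 2429, 892 and 588 CPM in the Comp/Fmod cells of Lox_CTR, KO_CTR, Lox_HFD and KO_HFD, and at 306, 735, 263 and 201 CPM in the Pi16 cells. It rose by 1.70 ± 0.08 on the log2 scale (n = 4, edgeR adjusted p = 2.83e-09). The values of KO_CTR stood above the others in both subsets. Mfap4 was at 1919, 3098, 1448 and 2096 CPM in Comp/Fmod cells and at 561, 1002, 306 and 366 CPM in Pi16 cells, the largest rise of the 10 genes at 2.07 ± 0.13 (edgeR adjusted p = 4.02e-08). The lowest Comp/Fmod library was above the highest Pi16 library for Mfap4, and the same held for the other genes of this group except Eln. How many of all genes were separated in this way is not given here.

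Fbln5 rose by 1.47 ± 0.09 and Lox by 1.79 ± 0.11 (edgeR adjusted p of 3.55e-08 and 5.36e-08). In Comp/Fmod cells Lox was at 201, 328, 436 and 214 CPM, and in Pi16 cells at 70.8, 102, 88.3 and 68.8. Fbln1 and Emilin1 rose by 0.86 ± 0.12 and 1.08 ± 0.16. Their edgeR adjusted p were 9.65e-05 and 0.000167. KO_CTR had the smallest differences for both, at 0.45 and 0.35. With a gate at 2 times the panel level, chosen after seeing the data, the differences of Eln and Mfap4 were larger, at 2.33 and 3.03.

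The 4 genes lower in Comp/Fmod cells were Fbn1, Mfap5, Fbln2 and Loxl1, so that microfibril genes, fibulins and lysyl oxidases each lay on both sides. Fbn1 was at 307, 474, 290 and 243 CPM in Comp/Fmod cells of Lox_CTR, KO_CTR, Lox_HFD and KO_HFD and at 1228, 1519, 1823 and 1691 CPM in Pi16 cells. It fell by 2.21 ± 0.15 on the log2 scale (n = 4, edgeR adjusted p = 1.02e-07), with no overlap of the 2 subsets. Mfap5 reached 2693 to 3081 CPM in Pi16 cells and 789 to 1220 in Comp/Fmod cells, a log2 difference of -1.45 ± 0.10 (edgeR adjusted p = 8.44e-08). Fbln2 was at 540 to 1090 CPM in Pi16 cells and 171 to 307 in Comp/Fmod cells, a difference of -1.69 ± 0.12 (edgeR adjusted p = 1.48e-07). Loxl1 differed least, by -0.40 ± 0.09 (edgeR adjusted p = 0.00442), and its adjusted p was 0.0544 without the library block.

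Fbn1 and Eln therefore had opposite orders in the 2 subsets. The genes of the lysyl oxidases were opposed as well, Lox higher and Loxl1 lower in Comp/Fmod cells. So were Fbln5 and Fbln2. In the 4542 fibroblasts outside every panel, Eln at 391 to 961 CPM and Mfap4 at 1041 to 1469 CPM lay between the 2 subsets within each library, as did Mfap5 at 972 to 1519 CPM. Penk fibroblasts had the lowest Eln of the 4 larger groups, at 218, 174, 176 and 86.4 CPM in Lox_CTR, KO_CTR, Lox_HFD and KO_HFD, on 11 to 209 cells a library. Cilp/Meox1 fibroblasts did not follow either subset. In Lox_CTR, KO_CTR and KO_HFD (63, 72 and 11 cells) they had Eln at 874, 1151 and 884 CPM. Their Fbn1, at 506, 845 and 997 CPM, lay between the Pi16 and Comp/Fmod values of each library. Their Fbln2, at 940, 1652 and 898 CPM, lay above both. Lox_HFD had 0 such cells.

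**Figure D3:**
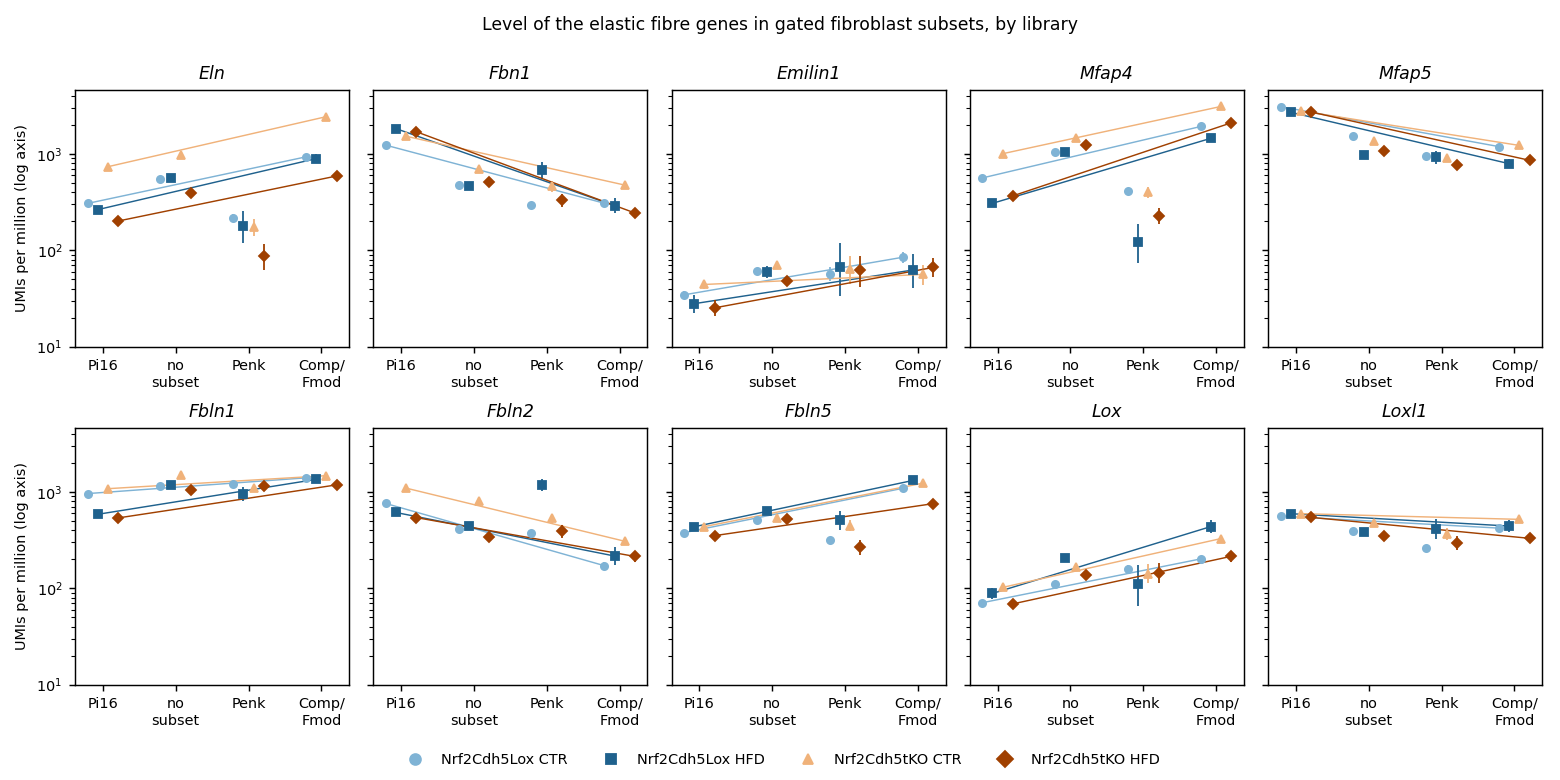
CPM on a log axis in Pi16 fibroblasts, fibroblasts of no subset, Penk fibroblasts and Comp/Fmod fibroblasts, with 1 point for each library and bars for the exact Poisson 95% interval. Lines join the Pi16 and Comp/Fmod values of a library and rise for Eln, Emilin1, Mfap4, Fbln1, Fbln5 and Lox and fall for Fbn1, Mfap5, Fbln2 and Loxl1 in all 4 libraries.

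The 4 libraries allow high-fat diet to be set against standard diet within each genotype label. Here a difference between 2 libraries past 1.5-fold, with at least 50 UMIs in both together, was called, which is a rule of size and not a test. In fibroblasts the diet called 1 of 10 genes in the Nrf2Cdh5Lox pair, against 18.6% of all genes past the filter, and 2 of 10 in the Nrf2Cdh5tKO pair, against 11.8%. For as few as 10 genes, both counts lay near these shares and are not read as a result about the members. The median log2 ratio of the 10 genes was -0.02 in the Nrf2Cdh5Lox pair, where that of all genes tested was 0.07, and -0.42 in the Nrf2Cdh5tKO pair, where it was -0.05.

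The called gene of the Nrf2Cdh5Lox pair was Lox, higher in HFD by 0.65 (95% interval 0.56 to 0.74), and Fbn1 at 0.57 (0.53 to 0.61) lay just under the threshold. In the Nrf2Cdh5tKO pair Eln and Fbln2 were called, lower in HFD with log2 ratios of -1.49 (-1.54 to -1.45) and -1.25 (-1.29 to -1.21). Eln in the Nrf2Cdh5Lox pair was at -0.07 (-0.13 to -0.02). For both genes the Nrf2Cdh5tKO pair held the highest library, KO_CTR, and the lowest, KO_HFD. Fibroblast Eln was at 968 CPM in KO_CTR, 345 in KO_HFD, 481 in Lox_CTR and 457 in Lox_HFD. Fbln2 was at 946, 398, 514 and 528 CPM in the same order, so that KO_CTR stood furthest from the other libraries.

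The diet pairs share no library, and their directions may be set side by side. Of the 10 genes, 5 had a lower value in HFD fibroblasts of both pairs with intervals that left out 0, namely Eln, Fbln1, Mfap4, Mfap5 and Emilin1. For 4, Fbn1, Fbln5, Lox and Loxl1, the pairs had opposite directions, higher with the diet in the Nrf2Cdh5Lox pair and lower in the Nrf2Cdh5tKO pair. None was higher in both. The matching shares over all genes are not given here, and at high UMI counts a counting interval can leave out 0 at a small ratio. Mfap4 was at 932 and 738 CPM in Lox_CTR and Lox_HFD and at 1430 and 1024 in KO_CTR and KO_HFD, with log2 ratios of -0.34 (-0.38 to -0.29) and -0.48 (-0.51 to -0.45). Mfap5 differed by -0.24 (-0.26 to -0.21) and -0.26 (-0.28 to -0.24).

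Subset by subset, some of these ratios moved. Within Pi16 fibroblasts Mfap4 had diet log2 ratios of -0.87 (-0.98 to -0.77) and -1.45 (-1.53 to -1.37), and Fbln1 of -0.71 (-0.79 to -0.64) and -1.01 (-1.08 to -0.94), in the Nrf2Cdh5Lox and Nrf2Cdh5tKO pairs. Fbn1 was higher in HFD in both pairs there, by 0.57 (0.53 to 0.61) and 0.16 (0.11 to 0.20), whereas over all fibroblasts its directions were opposed. In Comp/Fmod fibroblasts Lox had the most opposed ratios, 1.12 (0.87 to 1.36) and -0.61 (-0.84 to -0.39), the first on 29 Lox_HFD cells. The share of Comp/Fmod cells among fibroblasts was 5.61%, 4.78%, 6.05% and 9.77% and that of Pi16 cells 26.8%, 30.9%, 35.1% and 23.3% in Lox_CTR, KO_CTR, Lox_HFD and KO_HFD.

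In smooth muscle the diet called 2 of 10 genes in the Nrf2Cdh5Lox pair (29.8% of all genes past the filter) and 3 of 10 in the Nrf2Cdh5tKO pair (10.9%). In the first pair these were Fbln1, at -1.997 (-3.003 to -1.15) with 11 UMIs in Lox_HFD, and Fbln2, with 455 UMIs in Lox_CTR and 0 in Lox_HFD. Set against a floor of 3 counts in that library, Fbln2 was at least 5.30-fold lower. In the second pair Eln at -0.78 (-0.83 to -0.72), Fbln2 at -2.22 (-2.99 to -1.53) and Mfap5 at -0.85 (-0.95 to -0.74) were lower. Eln in the smooth muscle of the Nrf2Cdh5Lox pair differed by 0.05 (-0.05 to 0.14), a difference not detectable at this depth. Fbln1 and Fbln2 were low in smooth muscle, and leukocytes held them at 8.24 to 30.7 and 4.12 to 13.95 CPM. The 10% of cells richest in Fbln1 held 59.4% to 72.7% of its UMIs. For Fbln2 this was 71.6% to 100%, where it had any. The 100% was fixed by the counts, since KO_HFD had 19 Fbln2 UMIs and 30 cells in its top 10%. The 72.7% of Fbln1 came from Lox_HFD, with 11 UMIs and 7 such cells, which alone force a high share. Fibroblast gate markers in smooth muscle summed to 892, 837, 587 and 670 CPM in Lox_CTR, KO_CTR, Lox_HFD and KO_HFD. Their part in the Fbln1 and Fbln2 calls, also between labels, was not tested.

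Across both diet pairs, Mfap5 and Fbln5 had lower values in HFD smooth muscle, Fbln5 with log2 ratios of -0.16 (-0.33 to -0.00046) and -0.15 (-0.25 to -0.06), and Mfap4 higher ones, at 0.15 (0.0040 to 0.30) and 0.10 (0.02 to 0.18). The median of all genes in the first of these pairs was 0.11, and with median-of-ratios size factors the Mfap4 ratios were 0.046 and 0.14, so that its direction in the Nrf2Cdh5Lox pair is not firm. Lox_HFD had only 63 smooth muscle cells, in which pericyte markers (Rgs5, Kcnj8, Abcc9, Higd1b and Notch3) summed to 832 CPM against 285 to 566 in the other libraries. Their part in the values of that library was not tested.

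**Figure D4:**
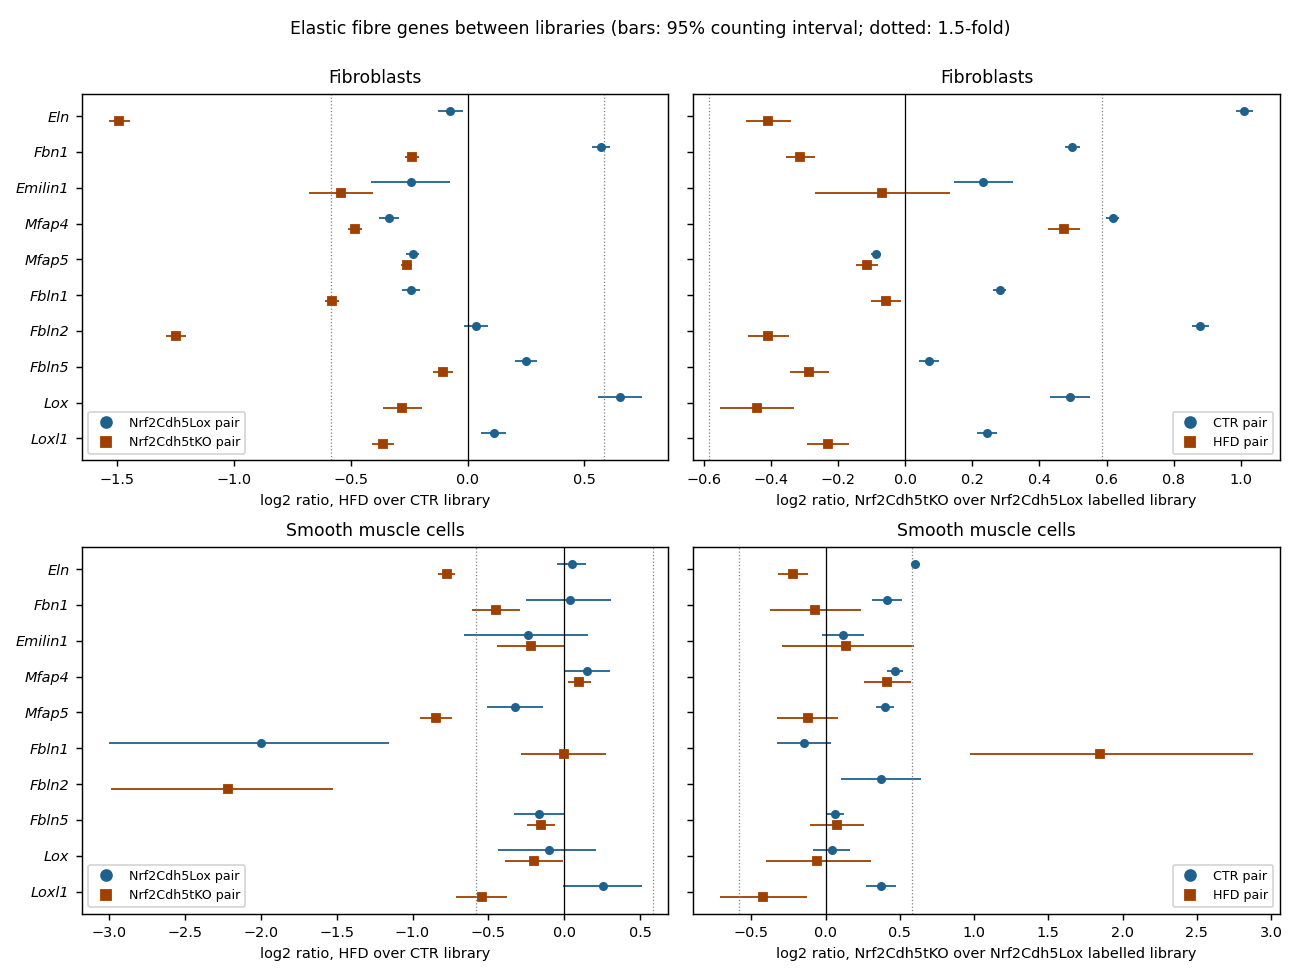
Log2 ratios of CPM between libraries for the 10 genes in fibroblasts and smooth muscle, on the left HFD over CTR within each genotype label and on the right Nrf2Cdh5tKO over Nrf2Cdh5Lox labels within each diet. Bars are exact 95% counting intervals, dotted lines mark 1.5-fold, and the ratios of Fbln2 in smooth muscle that involve Lox_HFD are left out because that library had none. Among the fibroblast ratios Eln had the widest span, from -1.49 for diet in the Nrf2Cdh5tKO pair to 1.01 for label in the CTR pair.

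The other comparison was between genotype labels within each diet. In fibroblasts 3 of 10 genes were called in the CTR pair, all higher in KO_CTR, against 13.1% of all genes, and 0 of 10 in the HFD pair, against 5.91%. The called genes were Eln at 1.01 (0.99 to 1.04), Fbln2 at 0.88 (0.85 to 0.90) and Mfap4 at 0.62 (0.60 to 0.64). With median-of-ratios size factors Mfap4 was at 0.56, under the threshold, which left 2 called. In the HFD pair their log2 ratios were -0.41 (-0.47 to -0.34), -0.41 (-0.47 to -0.35) and 0.47 (0.43 to 0.52). Only Mfap4 was higher and only Mfap5 lower under the Nrf2Cdh5tKO label in both diets with intervals that left out 0. A further 7 of 10 genes had opposite directions in the 2 diets, and the share of all genes that did is not given here. In smooth muscle 1 of 10 genes was called in each label pair (13.3% and 15.7% of all genes), Eln at 0.60 (0.57 to 0.64) in the CTR pair (0.51 and not called with median-of-ratios size factors) and Fbln1 at 1.85 (0.97 to 2.88) in the HFD pair, where 9 of 10 genes passed the filter.

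KO_CTR enters both the diet pair of its label and the label pair of its diet, so the calls of those pairs share its values. Its excess of Eln was present within Pi16 fibroblasts, at 735 CPM against 201 to 306, within Comp/Fmod fibroblasts, at 2429 against 588 to 930, and in smooth muscle, at 1906 against 1113 to 1297. In Penk fibroblasts KO_CTR had 174 CPM against 218 in Lox_CTR, and in endothelial cells it had the lowest Eln of the 4 libraries. Its fibroblasts were also the deepest, with a median of 16626 UMIs a cell against 10694.5 to 14089. They held more transcripts of cardiomyocyte markers (Myl7, Nppa, Sln, Myl4 and Actc1, of which 5 of 5 were detected there), summing to 35.8 CPM against 3.67 to 4.68 in the other libraries, and of mesothelium (Msln, Upk3b, Krt19 and Lrrn4), at 45.1 against 6.85 to 10.7. Cilp/Meox1 cells were 4.41% of the fibroblasts of KO_CTR and 0% to 1.41% of those of the other libraries. The part of these transcripts, of depth and of the Cilp/Meox1 share in the Eln values was not tested.

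The wider pathway was described by 19 further elastic fibre genes, 8 elastin-degrading proteases and genes of TGF-beta signalling, a known inducer of elastin. In fibroblasts the diet called 1 of the 19 higher and 4 lower in the Nrf2Cdh5Lox pair, and 2 higher and 4 lower in the Nrf2Cdh5tKO pair, with 18 past the filter in each, beside 18.6% and 11.8% of all genes called in either direction. Of the proteases, 0 of 6 past the filter were called in the first pair, and 1 higher and 1 lower of 5 in the second. Elastic fibre genes past 1.5-fold in the same direction in both pairs were Fbln7, Adamtsl2 and Thsd4. Fbln7, a further fibulin, was higher in HFD fibroblasts, with 59.2 and 99.6 CPM in Lox_CTR and Lox_HFD and 44.1 and 133 CPM in KO_CTR and KO_HFD. Adamtsl2 and Thsd4 were lower. Adamtsl2, which codes like Thsd4 for a microfibril-binding protein of the ADAMTS-like group, was at 36.1 and 13.5 CPM and at 71.7 and 15.2 CPM in the same order, and Thsd4 was at 5.80 and 1.76 CPM and at 8.34 and 4.47 CPM.

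The most abundant of the further elastic fibre genes were Bgn, the proteoglycan biglycan, at 1508 to 1998 CPM in fibroblasts and 2050 to 2232 in smooth muscle, and the latent TGF-beta binding protein genes. Ltbp4, which is needed for elastic fibre assembly, was at 376 to 709 CPM in fibroblasts, 357 to 466 in smooth muscle and 418 to 836 in endothelial cells. Ltbp1 was at 388 to 550 CPM in smooth muscle, Efemp1, which codes for fibulin-3, at 221 to 421 in fibroblasts, and Ltbp3 at 37.7 to 164 in endothelial cells. In leukocytes the leading gene of this list was Emilin2, at 52.0 to 78.3 CPM, ahead of Bgn at 39.8 to 72.0 and Ltbp4 at 10.7 to 35.6.

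Of the elastin-degrading proteases, Ctsl, a lysosomal cathepsin, led in fibroblasts at 1546 to 1893 CPM, in smooth muscle at 385 to 462 and in endothelial cells at 363 to 650. It was followed in fibroblasts by the gelatinase gene Mmp2 at 278 to 448 CPM and by Ctsk, which codes for cathepsin K, at 122 to 161. Mmp14, a membrane-bound protease gene, and Mmp2 were at 29.1 to 42.1 and 9.40 to 26.4 CPM in smooth muscle. Leukocytes held Ctss, the gene of cathepsin S, at 631 to 1307 CPM, Ctsl at 183 to 304 and Mmp12, the macrophage elastase gene, at 51.1 to 150 CPM. Ctss was also the gene past 1.5-fold in smooth muscle of both label pairs, at 6.47 and 11.2 CPM in Lox_CTR and KO_CTR and at 6.71 and 18.5 CPM in Lox_HFD and KO_HFD, on 5 UMIs in Lox_HFD. In the same smooth muscle cells macrophage markers (Csf1r, Adgre1, C1qa, C1qb, Mrc1 and Cd68, 6 of 6 detected in each library) summed to 67.9 and 154 CPM in Lox_CTR and KO_CTR and to 81.9 and 199.9 CPM in Lox_HFD and KO_HFD, and their part in the Ctss values was not tested. For TGF-beta signalling, Ccn2 (listed in the files as Ctgf) led in smooth muscle at 2239 to 3408 CPM and in fibroblasts at 781 to 958, and Tgfb2 was at 133 to 166 and 67.6 to 84.7 CPM in the same classes. In leukocytes Tgfb1 led the list at 198 to 245 CPM, and Smad7, an inhibitor of the pathway, was at 149 to 222 CPM in endothelial cells.

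Across the 16 sums of 4 classes and 4 libraries, the 10 genes fell along a few patterns. The Pearson correlation of log2(CPM + 1) was 0.97 between Eln and Emilin1, 0.96 between Fbln5 and Lox and 0.98 between Mfap4 and Loxl1, but 0.13 between Eln and Fbln1 and 0.05 between Fbln2 and Mfap4. These are descriptions over 16 sums that share libraries and classes. Among 14164 genes with at least 100 UMIs, the 3 most like Eln were Rilpl1, Mical2 and Smoc1, with correlations of 0.98. The first-ranked genes for the others were Nbl1 for Fbn1, Cd248 for Fbln1, Tmed10 for Fbln2, Afap1 for Fbln5, Rbp4 for Mfap4, Mxra7 for Mfap5, P3h3 for Lox, Rassf8 for Loxl1 and Mid2 for Emilin1, with correlations from 0.96 for Tmed10 to 0.99 for Afap1.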

How the data were processed

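Droplet 3′ single-cell libraries (10x Chromium) of 4 pooled groups were analysed from the raw UMI counts that the authors deposited, 1 gene-by-barcode matrix a library. Per the submitters' processing notes these were made with Cell Ranger 6.1.2 on mm10. No normalized values were used. The 4 matrices held 15599 barcodes and 178932646 UMIs. Following the study's methods, barcodes under 200 or over 6000 genes, or over 15% mitochondrial, were dropped. Library totals ranged from 12276546 to 98754487 UMIs.

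Classes were gated on the log2(1 + panel UMIs per 10000) of marker panels, with cuts of 6 (fibroblast), 7 (smooth muscle), 4 (endothelial) and 4 (leukocyte), at least 3 markers detected and no second class passed. The cuts were set after seeing the marker distributions. Fibroblast subsets needed at least 2 markers of their panel. Doublets were left in the main values, and Scrublet (scanpy 1.11.5), which called 0.98% to 2.41% of cells, gave an alternative without them.

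Counts were summed over the cells of a class and library and divided by all UMIs there, times 1000000. Levels carry exact Poisson and ratios exact binomial 95% intervals, which cover counting error only. A ratio was called past 1.5-fold with at least 50 UMIs in both libraries together. A library with 0 UMIs was set to a floor of 3 counts. Contrasts between classes or subsets used edgeR 4.0.16 (R 4.3.3; quasi-likelihood test, library as block, Benjamini-Hochberg adjustment over all genes tested), a test chosen after seeing the data, with DESeq2 1.42.0 as an alternative. Scripts ran in Python 3.11.15 and were tested on simulated data.

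The genes named are the 10 members, the 3 most abundant genes of each further list in each class, list genes past 1.5-fold in both pairs of a contrast, and for each member the 3 genes most like it, of which the first is printed for 9. The members and lists were chosen with earlier results of these data known. The capillary and arterial endothelial lists were added after seeing the data. Alternatives covered the gates, filters, doublets, shared barcodes, scaling, thresholds and single libraries left out. The HFD groups also received an injected agent, so that HFD stands for diet and agent together; that agent and a gene of the further lists are not reported here.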

Additional observations from a re-analysis of the deposited data

Results flagged for a closer look

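The diet ratios of 4 elastic fibre genes in fibroblasts had opposite directions under the 2 genotype labels, each with a counting interval that left out 0. The log2 ratio of the Nrf2Cdh5Lox pair minus that of the Nrf2Cdh5tKO pair was 0.93 for Lox, 0.81 for Fbn1, 0.47 for Loxl1 and 0.36 for Fbln5. The difference was not tested, since each diet and label combination was 1 library. The share of all genes with opposite directions is not given here.

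Cells that passed no gate held Eln at 578 CPM in Lox_CTR, 790 in KO_CTR, 594 in Lox_HFD and 1277 in KO_HFD, above the 12.6 to 31.3 CPM of leukocytes. These 411 cells were shallow, with median depths of 1221 to 1717.5 UMIs a cell, and enter no comparison of the report.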

How the results depend on the processing

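Of the counts of members past 1.5-fold, 75 of 92 alternatives stayed within 1.5 times the main count. In fibroblasts the diet count of the Nrf2Cdh5Lox pair, 1, became 0 past 2-fold, 2 in Pi16 cells alone and 2 in Comp/Fmod cells alone. That of the Nrf2Cdh5tKO pair, 2, became 5 in each of these subsets. The label count in CTR, 3, became 1 past 2-fold and 6 in Comp/Fmod cells alone, and that in HFD, 0, became 2 with subsets at equal weight and 3 in Comp/Fmod cells alone. In smooth muscle the diet count of the Nrf2Cdh5tKO pair, 3, became 5 with a stricter marker gate and 1 past 2-fold. The label count in CTR, 1, became 0 with a stricter gate, a mitochondrial share of at most 10%, median-of-ratios size factors or a call past 2-fold, and that in HFD, 1, became 3 as a mean over cells and 0 with at least 200 UMIs. Median-of-ratios scaling moved the median of all genes by over 0.1 only for diet in the smooth muscle of the Nrf2Cdh5Lox pair (-0.11). The causes were not tested. The shares of all genes called under these alternatives are not given here, so the counts are not read as results about the members.

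For endothelial cells over fibroblasts, the count of genes called higher, 1, was 2 with no filter beyond 1 UMI and 0 to 2 with single libraries left out, and the count higher in all 4 libraries, 1, became 0 with a stricter gate. With single libraries left out, the log2 difference of Fbln2 ranged from -0.67 (without KO_HFD) to 0.029, its reversed value without KO_CTR (edgeR adjusted p = 0.959). Eln, at 0.73, passed with the stricter gate (0.56, edgeR adjusted p = 0.0113). Of the 370 alternatives for single genes in the 3 contrasts, 350 kept direction and call, 15 gained a call, 4 lost one and 1 reversed. Fbln5 in smooth muscle gained one with a stricter gate (-0.32, edgeR adjusted p = 0.0331). Without the replicate block, that is, without library as a term, Loxl1 lost its call between fibroblast subsets (-0.39, edgeR adjusted p = 0.0544), 6 genes were higher and 3 lower there, and no other member lost its call. Diet paired over the 2 labels, or label over the 2 diets, was not tested. A subset gate with 1 more marker was not run, since it left 6 Comp/Fmod cells in Lox_CTR and 0 in the others, and one at 2 times the panel level, chosen after seeing the data, kept direction and call for the 10 genes. The endothelial values rest on 22 to 72 cells a library.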
